A study of Danio rerio with 13 samples.

Results

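The genes described here carry glucose into the cell, through glycolysis and on to lactate in zebrafish leukemias. They are 35 listed zebrafish symbols of glucose uptake, of each glycolytic step, of lactate formation, of pyruvate dehydrogenase and its kinase, and of monocarboxylate transport. The symbols were looked up in a gene name table, in any letter case, and every identifier that carried the name was kept. Of the 35 symbols, 13 were found as spelled, 21 were found in the spelling of the human gene, such as ALDOA for aldoaa and aldoab, and pgk1 was not found. The lookup gave 37 identifiers with 25 names, out of 32105 identifiers in the count table. Where a human spelling has a pair of identifiers, the name table does not say which is the a and which the b paralog, so each is given by its Ensembl identifier.

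The study sequenced RNA of 13 acute lymphoblastic leukemias (ALL) of double-transgenic zebrafish. Every fish carried rag2:hMYC, in which the promoter of the lymphoid recombination gene rag2 drives human MYC, and lck:eGFP, in which the T cell gene promoter lck drives a green fluorescent protein. GFP+ leukemia cells from the whole body were purified by flow cytometry, so cells without the reporter were left out by design. No normal cells or fish without MYC are among the samples, the labels give no treatment, age or sex, and they do not sort the leukemias into B or T types. The labels list separate samples of 1 group, and the p-values below measure the spread between these libraries.

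The column hMYC-1 was left out: its 51808498 counts are close to the sum of 51478946 over hMYC-10 to hMYC-14, and 53.7% of 5983 low genes had exactly that sum there. The 12 other libraries held 8166453 to 12297780 counts each. The listed genes took 0.370% to 0.901% of all counts in a library, with a median of 0.492%. The third field of each description is a letter, d in 6 libraries and c in 6, whose meaning is not given in the labels and which was treated as a possible batch.

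Because no label says B or T, each library was placed on a B minus T index. The index is the mean log2 CPM (counts scaled to a library of common size, as CPM, on the log2 scale) of 13 B cell marker genes minus that of 16 T cell marker genes, scaled to 1 in the highest library and 0 in the lowest. None of the glycolysis genes enters the index. From the B end to the T end the order was hMYC-5, hMYC-3, hMYC-4, hMYC-12, hMYC-13, hMYC-6, hMYC-8, hMYC-2, hMYC-14, hMYC-10, hMYC-9 and hMYC-11. B markers averaged 7.21 log2 CPM in hMYC-5 and 0.13 in hMYC-11, and T markers averaged 4.13 in hMYC-5 and 7.23 in hMYC-11, so T markers were detected in every library, also at the B end. The T markers did not all run the same way. Of 18 T marker identifiers, 5 were higher toward the B end in fits along the index. Among the markers used, tagapa had 21722 counts in hMYC-5 and 3791 in hMYC-11, and TOX had 4471 and 1906. In the same libraries cd4-1 had 186 and 5509 counts. The index ran from 0 to 0.519 in the letter d libraries and from 0.211 to 1 in the letter c libraries, so the letter and the index are partly confounded.

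Glycolysis breaks glucose down to pyruvate, and lactate dehydrogenase turns pyruvate into lactate, which renews the NAD+ that the pathway needs. Hexokinase, phosphofructokinase and pyruvate kinase are its main control points. In mammalian cells MYC is known to raise the transcription of several of these genes, LDHA, SLC2A1 and HK2 among them, and proliferating lymphoid cells are known for high glucose use. Many steps have several paralogs in fish, which share the reaction and differ in the tissue that uses them.

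Of the 37 identifiers, 28 passed the filter on low counts. The other 9 had at most 41 counts over all 12 libraries and at most 16 in any library, while those that passed had at least 241. In 12 names with a pair of identifiers, 7 had 1 identifier past the filter and 1 not, 4 had both (PFKL, PFKP, ENO1 and SLC16A3) and 1, the muscle phosphofructokinase PFKM, had neither, with 10 and 1 counts in all. No usable gene lengths were at hand, so the paralogs of a step are compared by their share of that step's reads in a library, which is not a share of molecules. Of 13 groups of paralogs, 9 were led by the same identifier in all 12 libraries.

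**Figure D1:**
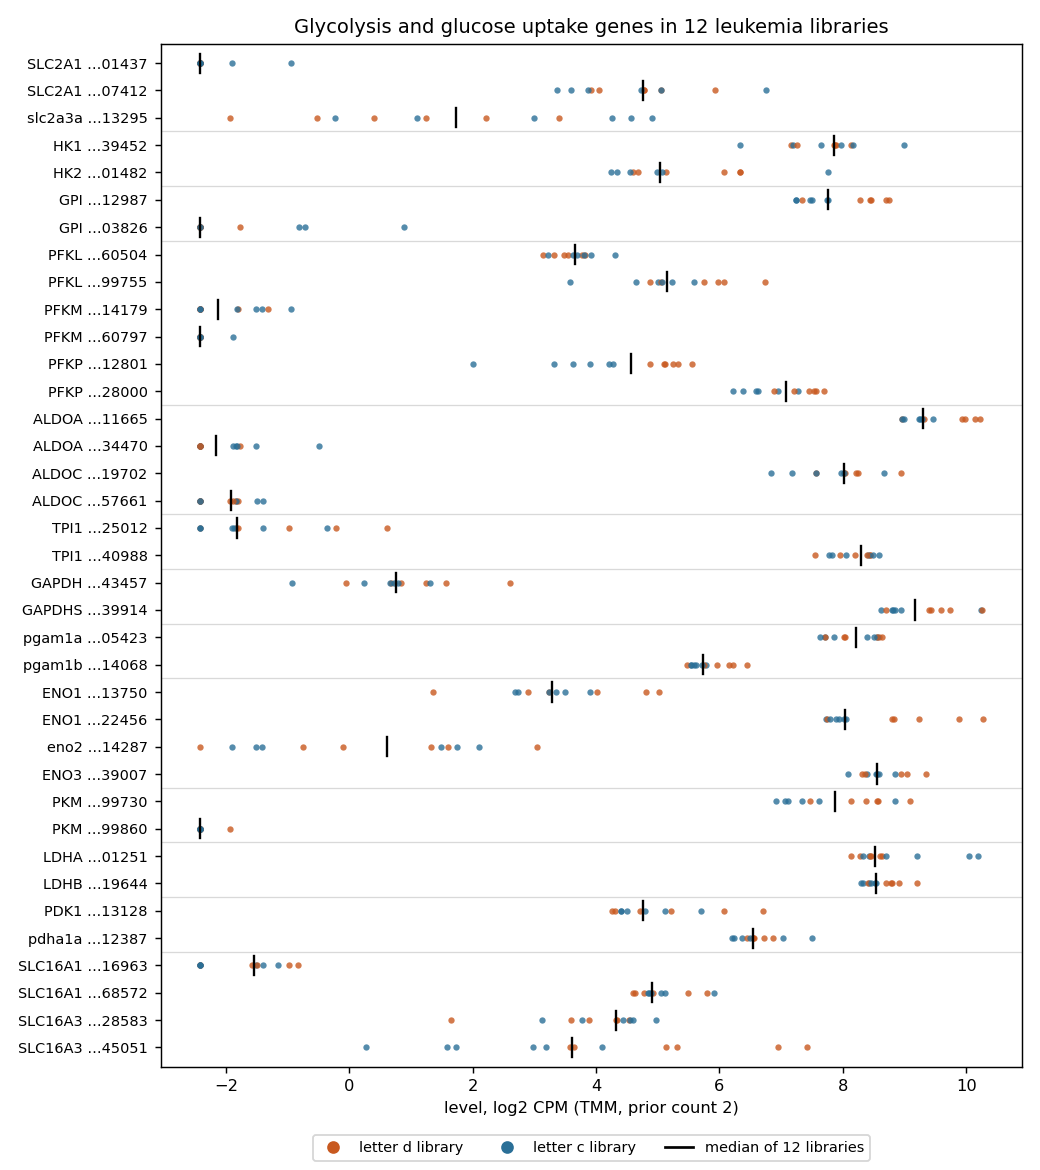
Levels of the 37 identifiers, grouped by step, in log2 CPM on the x axis; each point is 1 of 12 libraries, orange for letter d and blue for letter c, black bars are medians, and the last digits of the Ensembl identifier follow the name. GPI, TPI1, GAPDHS, PKM and SLC16A1 each have 1 identifier far to the right of the other, and the ranges overlap for a pair of genes in glucose uptake, hexokinase, phosphofructokinase, enolase, lactate dehydrogenase and SLC16A3.

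Glucose enters through the transporters of the SLC2A family. SLC2A1 (ENSDARG00000007412), the widely expressed basal transporter GLUT1 in mammals, had 10.1 to 107 CPM with a median of 26.8 CPM, and its second identifier (ENSDARG00000001437) had 3 counts in all. slc2a3a (ENSDARG00000013295), a gene of the high-affinity transporter GLUT3, had 0.0752 to 29.8 CPM with a median of 3.32 CPM. Among the 3 listed identifiers SLC2A1 led in 10 libraries, with a median of 92.9% of their reads. The unlisted paralog slc2a3b had more reads than SLC2A1 in 11 of the 12 libraries, so the order holds within the list only. In hMYC-3 and hMYC-5 slc2a3a led the listed identifiers, and in hMYC-3 it took 69.8% of their reads.

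Hexokinase traps glucose as glucose 6-phosphate. HK1 (ENSDARG00000039452), the general form in mammals, took 70.1% to 93.5% of the hexokinase reads, with a median of 81.8%, and averaged 229 ± 107 CPM (SD, n = 12). HK2 (ENSDARG00000101482), the insulin-responsive form of muscle that many tumors express, was highest in hMYC-2 with 216 CPM. The next values of HK2 were 80.2 CPM in both hMYC-13 and hMYC-14, and the lowest was 18.8 CPM in hMYC-3. GPI (ENSDARG00000012987), which turns glucose 6-phosphate into fructose 6-phosphate, took at least 99.2% of the reads of its pair in every library.

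Phosphofructokinase makes the first committed intermediate of glycolysis. PFKP (ENSDARG00000028000), an ortholog of the platelet form, carried 50.3% to 75.4% of the reads of the 6 identifiers, with a median of 62.0%. PFKL (ENSDARG00000099755), named for the liver form, followed with a median share of 20.5%, the second PFKP identifier (ENSDARG00000012801) with 11.6% and the second PFKL identifier (ENSDARG00000060504) with 5.13%.

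Aldolase splits fructose bisphosphate into trioses. ALDOA (ENSDARG00000011665), the form of muscle and most other cells in mammals, held 60.6% to 84.1% of the aldolase reads. ALDOC (ENSDARG00000019702), the brain form in mammals, held nearly all the rest, with a median of 27.3%. TPI1 (ENSDARG00000040988), which interconverts the trioses, took at least 99.6% of its pair in every library.

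The next step oxidizes glyceraldehyde 3-phosphate and makes NADH. GAPDHS (ENSDARG00000039914), named after the form of mammalian sperm, averaged 672 ± 293 CPM (SD, n = 12) and took 98.6% to 99.9% of the reads of the step. GAPDH (ENSDARG00000043457), which is often used as a reference gene, had 0.338 to 5.89 CPM. Phosphoglycerate kinase could not be followed under its own symbol. An identifier named PGK2 (ENSDARG00000054191), which was not on the list, had 389 to 972 CPM with a median of 541 CPM. The name table gives many fish genes a human name, so the name does not tell whether this is the gene listed as pgk1. Of the phosphoglycerate mutases, pgam1a (ENSDARG00000005423) took 74.9% to 89.5% of the reads and pgam1b (ENSDARG00000014068) the remainder.

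At enolase, which makes phosphoenolpyruvate, 2 identifiers shared the step. ENO3 (ENSDARG00000039007), the muscle enolase of mammals, had 271 to 654 CPM and led in 8 libraries, where it had 271 to 493 CPM. ENO1 (ENSDARG00000022456), the general enolase, had 211 to 1240 CPM and led in 4 libraries, where it had 454 to 1240 CPM. Its share ran from 35.4% in hMYC-5 to 64.7% in hMYC-10. ENO1 was highest in hMYC-13 with 1240 CPM, followed by hMYC-9 with 946 CPM and hMYC-10 with 602 CPM, against a median of 261 CPM. eno2 (ENSDARG00000014287), the neuronal enolase, never passed 0.669% of the enolase reads. The second ENO1 identifier (ENSDARG00000013750) had at most 32.4 CPM.

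Pyruvate kinase makes pyruvate and ATP. PKM (ENSDARG00000099730) took at least 99.98% of the reads of its pair, because the second identifier (ENSDARG00000099860) had 1 count in all. PKM itself had 120 to 545 CPM, with the highest value in hMYC-13 and 462 CPM in hMYC-2.

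At lactate dehydrogenase a pair of genes shared the step. LDHA (ENSDARG00000101251), the form that favors lactate formation, and LDHB (ENSDARG00000019644), the form of heart muscle in mammals, each led in 6 libraries. The share of LDHA ran from 36.8% in hMYC-14 to 76.8% in hMYC-5. LDHB varied least of the 28 genes past the filter, with an SD of 0.27 log2 CPM and 315 to 591 CPM.

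Pyruvate dehydrogenase acts on pyruvate inside the mitochondrion, and its subunit gene pdha1a (ENSDARG00000012387) had 73.7 to 181 CPM. Its inhibitory kinase PDK1 (ENSDARG00000013128) had 19.0 to 105 CPM and was highest in hMYC-10. SLC16A1 (ENSDARG00000068572), the monocarboxylate transporter MCT1, had 23.9 to 59.8 CPM and at least 98.6% of the reads of its pair. SLC16A3, the lactate exporter MCT4, had a pair of identifiers that led in 7 libraries (ENSDARG00000028583) and in 5 (ENSDARG00000045051).

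The spread of these genes between leukemias was described by the SD of log2 CPM. The median SD over the 12 libraries was 0.67 log2 CPM for the 28 genes past the filter and 0.55 for all 13663 tested genes, and 18 of the 28 lay above the median of all genes. The 5 with the largest SD were slc2a3a with 2.21, SLC16A3 (ENSDARG00000045051) with 2.13, eno2 with 1.83, HK2 with 1.06 and PFKP (ENSDARG00000012801) with 1.04 log2 CPM. SLC16A3 (ENSDARG00000045051) had 171 CPM in hMYC-13 and 123 CPM in hMYC-10, at most 39.4 CPM in the other 10 libraries and 1.02 CPM in hMYC-5. eno2 had 8.07 CPM in hMYC-13 and 0 counts in hMYC-10, where a count of 0 allows up to 0.261 CPM by counting error alone. The summed level of 12 identifiers of neural marker genes was 1.01 CPM in hMYC-13, the lowest of the 12 libraries, and reached 13.1 CPM in hMYC-2.

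Single libraries stood out across several steps. hMYC-13 had the highest level of 9 of the 28 genes, among them GPI, ALDOC, GAPDHS, ENO1, ENO3, PKM and LDHB, and lay above the gene's own median in 23. hMYC-9 lay above it in 24 genes and hMYC-12 in 6. hMYC-2 was highest for SLC2A1, HK1, HK2, PFKL (ENSDARG00000060504), pdha1a and SLC16A1 (ENSDARG00000068572). This library has a normalization factor of 0.740, and with library totals alone as the scaling it was highest for 4 genes in place of 6 and lay above the own median in 11 in place of 17. hMYC-3 was lowest for 6 genes, among them SLC2A1, HK1 and HK2. Markers of other cells gave 0.301 to 208 CPM summed over 11 muscle identifiers, 3.57 to 184 CPM over 6 erythroid, 33.0 to 251 CPM over 13 myeloid and 6.35 to 206 CPM over 11 epithelial and gut identifiers. The muscle sum of 208 CPM in hMYC-11 came almost wholly from 1 identifier, TNNT3 (ENSDARG00000068457) with 207 CPM. In that library ckmb had 2 counts, pvalb2 and atp2a1 had 1 each, and ckma had 0. ckma had at most 5 counts in any library, and the PFKM identifiers were near 0 everywhere. Other muscle identifiers reached more, with 97 counts of atp2a1 and 94 of TNNT3 (ENSDARG00000068457) in hMYC-10, and 18 of actc1b in hMYC-12. The part of these cells in the results was not tested.

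**Figure D2:**
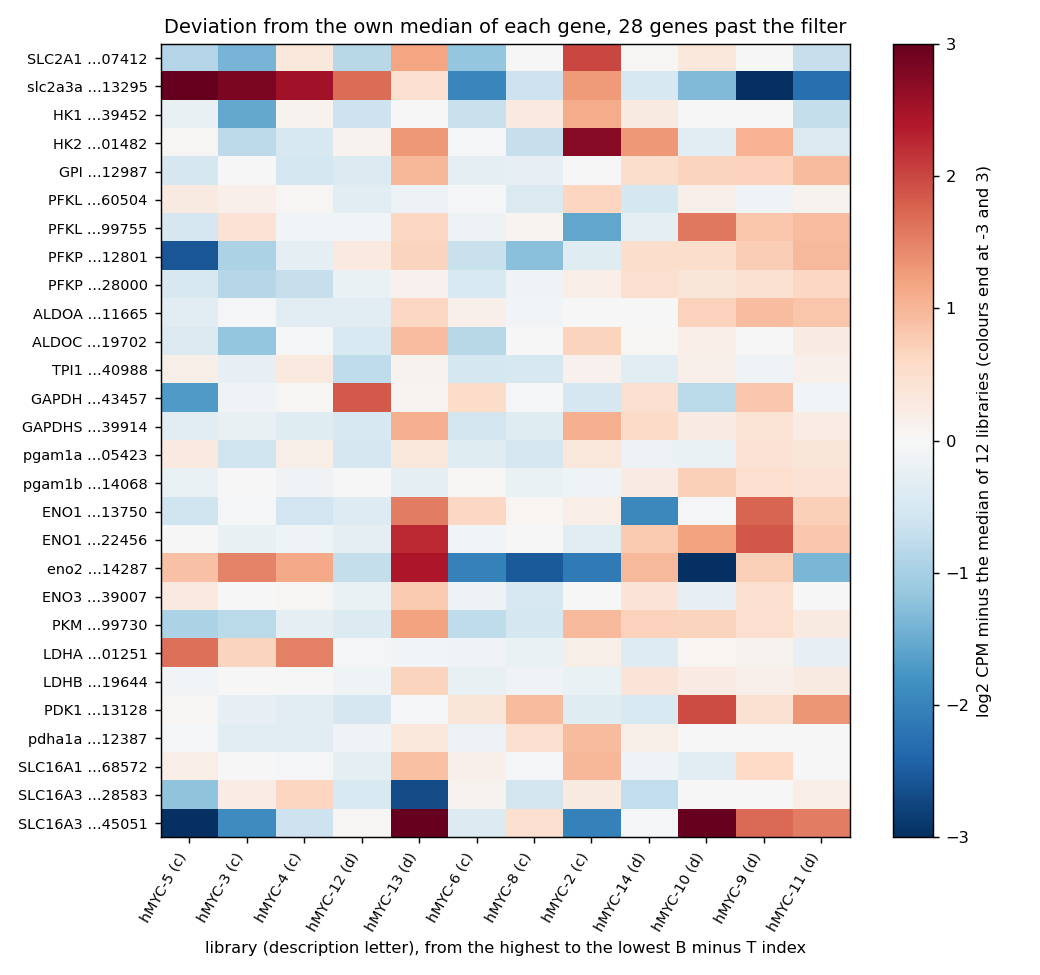
Deviation of the 28 genes past the filter from their own median, in log2 CPM (colour scale from -3 to 3), with the 12 libraries on the x axis from the highest to the lowest B minus T index and the letter in brackets. hMYC-13 is above the own median in 23 genes, and slc2a3a and LDHA are the rows with their high values at the left, B end.

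Along the B minus T index 4 genes were called. The transporter slc2a3a and lactate dehydrogenase LDHA were higher toward the B end, and PFKP (ENSDARG00000028000) and ALDOA were lower. They were 4 of the 28 genes, past an adjusted p of 0.05 (2 up and 2 down, 14.3%), beside 13.5% of all 13663 tested genes (8.12% up and 5.35% down), so the share of genes called was close to that of all genes. The fitted value given for each gene is the log2 difference between the B end and the T end of the index, from edgeR's quasi-likelihood test with Benjamini-Hochberg adjustment over all tested genes. It was below 0 in 22 of the 28 genes, with a median of -0.80, beside a median of -0.08 over all genes, of which 53.8% were below 0. Of the 28 genes, 10 had an unadjusted p under 0.05, beside 27.3% of all genes. DESeq2 called 8 of the 28, beside 21.8% of all genes. Without hMYC-13 edgeR called 7 of the 28, beside 14.7% of all genes, adding PKM, GPI and SLC16A3 (ENSDARG00000045051), all lower toward the B end. Over all 12 libraries with the letter as a covariate, PKM gave -1.11 ± 0.61 (adjusted p = 0.279) and GPI -0.46 ± 0.38 (adjusted p = 0.483). That SLC16A3 identifier gave -1.75 ± 1.56 (adjusted p = 0.518). With this covariate 20 of the 28 genes were below 0, with a median of -0.55, beside a median of -0.04 over all genes. In bulk RNA, more cells with a transcript and more transcript per cell cannot be told apart.

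slc2a3a had the largest difference of the 4. From the B end to the T end it had 29.8, 23.4, 18.9, 10.4, 4.46, 0.668, 1.96, 7.81, 2.18, 1.13, 0.0752 and 0.507 CPM. The lowest of these rest on few reads, with 1 count in hMYC-9, 5 in hMYC-11 and 7 in hMYC-6, which limits the size of the difference. The 4 libraries with the highest index were the 4 with the highest slc2a3a, and in the same order. The last of these 4, hMYC-12, was high in both marker sets. Its T markers averaged 7.85 log2 CPM, the highest of the 12 libraries, and its B markers 6.04. The fitted log2 difference was 5.20 ± 1.01 (SE, adjusted p = 0.00441). With the letter as a covariate it was 4.93 ± 1.23 (adjusted p = 0.0248). Within letters it was 9.22 ± 2.07 in the 6 d libraries (adjusted p = 0.199) and 3.92 ± 1.21 in the 6 c libraries (adjusted p = 0.0911), above 0 in both. Values within letters, for any gene here, are scaled to the whole index from 0 to 1. They reach past the libraries fitted, since d stops at an index of 0.519 and c starts at 0.211. Such a value can therefore be larger than the difference seen among the libraries of that letter. The fits within letters were added after the data were seen, and called 1465 of all 13663 genes in c and 72 in d. In c the index was 0.211 to 0.293 in hMYC-2, hMYC-8 and hMYC-6, and 0.797 to 1 in hMYC-4, hMYC-3 and hMYC-5. The gap between these clusters passed 0.4 of the range in c. A difference within c, for any gene here, therefore contrasts these clusters of libraries and does not show a graded slope. SLC2A1 did not pass the test along the index, with a difference of -1.32 ± 0.93 (adjusted p = 0.395).

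LDHA stood apart in 3 libraries. In the same order it had 1167, 588, 1061, 353, 348, 343, 322, 418, 281, 387, 397 and 310 CPM. The 3 libraries at the B end had the 3 highest values, and the other 9 lay between 281 and 418 CPM. The fitted log2 difference was 1.70 ± 0.32 (adjusted p = 0.00348), and 1.54 ± 0.43 with the letter as a covariate (adjusted p = 0.0437). All 3 high libraries carry the letter c. Within letters the difference was -0.17 ± 0.57 in d (adjusted p = 0.957), where the index reaches only 0.519, and 1.99 ± 0.49 in c (adjusted p = 0.0481). The index falls into clusters within c, so the c difference contrasts hMYC-5, hMYC-3 and hMYC-4 with hMYC-6, hMYC-8 and hMYC-2. Calls within c were common, with 1465 of all 13663 genes called there and 72 in d. The test of d minus c, also added after the data were seen, gave -1.97 ± 0.89 (unadjusted p = 0.0495, adjusted p = 0.555). LDHB did not pass the test along the index (-0.25 ± 0.26, adjusted p = 0.582).

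PFKP (ENSDARG00000028000) was lower toward the B end. From the B end to the T end it had 96.6, 74.4, 83.0, 118, 148, 98.0, 123, 154, 188, 174, 184 and 207 CPM. The 4 libraries with the lowest index were the 4 with the highest PFKP. The fitted log2 difference was -1.25 ± 0.24 (adjusted p = 0.00439), -0.93 ± 0.24 with the letter as a covariate (adjusted p = 0.0316), -1.57 ± 0.44 within d (adjusted p = 0.300) and -0.79 ± 0.33 within c (adjusted p = 0.185). The second PFKP identifier (ENSDARG00000012801) had 3.81 CPM in hMYC-5 and 46.8 CPM in hMYC-11, the ends of its own range. Its difference of -1.97 ± 0.65 did not pass the adjustment (adjusted p = 0.0666), but did without hMYC-2 (adjusted p = 0.0478) or hMYC-8 (adjusted p = 0.0325). DESeq2 also called it (adjusted p = 0.0113), beside 21.8% of all genes. So did edgeR with no filter (adjusted p = 0.0488), where 3060 of 26058 genes were called. With the letter as a covariate the difference of this second identifier was -0.79 ± 0.57 (adjusted p = 0.413).

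ALDOA (ENSDARG00000011665) was called with the smallest margin. It had 511, 608, 498, 497, 976, 708, 600, 626, 638, 1016, 1197 and 1126 CPM in the same order, so 3 of its 4 highest values were at the T end and the fourth was hMYC-13. The fitted log2 difference was -0.98 ± 0.30 (adjusted p = 0.0483). It was -0.66 ± 0.35 with the letter as a covariate (adjusted p = 0.260), -2.07 ± 0.79 within d (adjusted p = 0.452) and -0.32 ± 0.29 within c (adjusted p = 0.542), so the call was lost when the letter entered. It was also lost without any 1 of hMYC-3, hMYC-4, hMYC-5, hMYC-6, hMYC-9, hMYC-10, hMYC-11 or hMYC-12, with adjusted p-values of 0.0575 to 0.134.

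**Figure D3:**
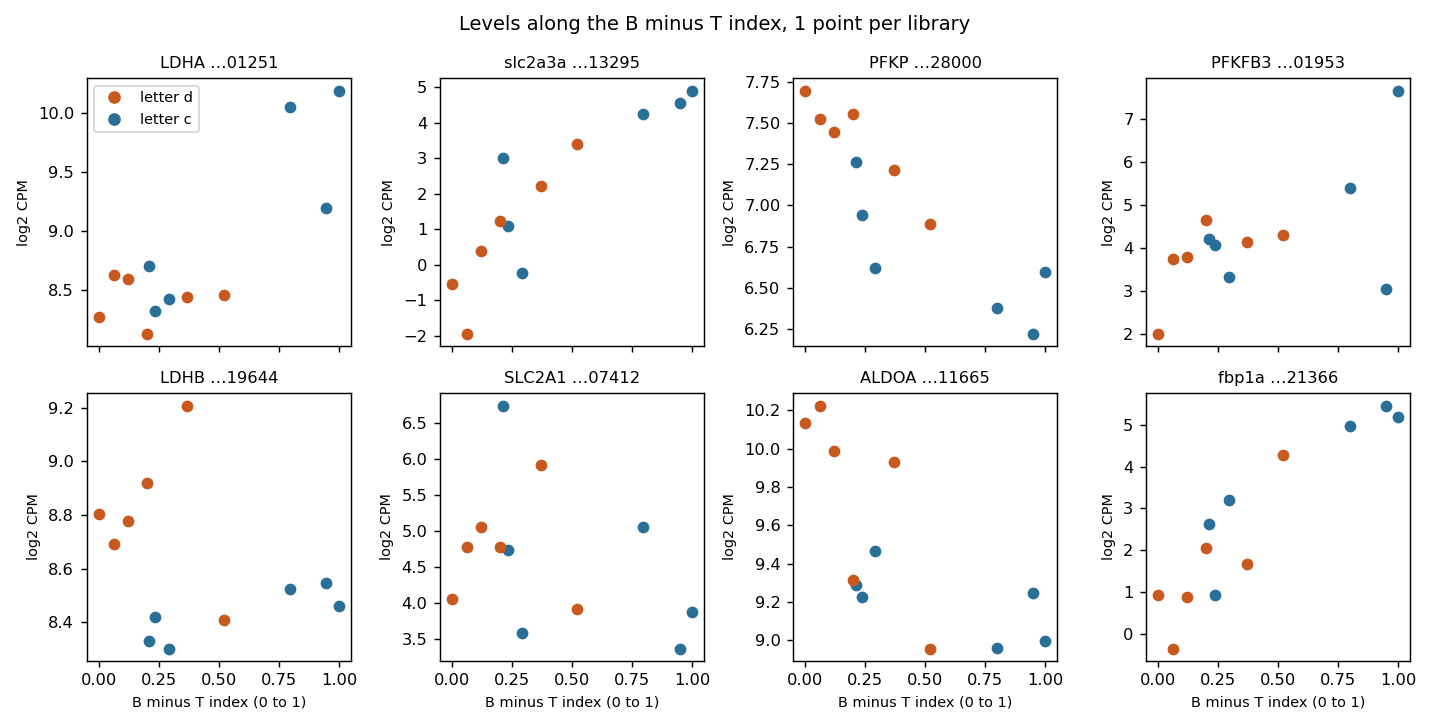
Level in log2 CPM (y axis) against the B minus T index (x axis, 0 at the T end and 1 at the B end) for 8 genes, 1 point per library, orange for letter d and blue for letter c. slc2a3a and fbp1a are highest in the libraries nearest the B end (hMYC-5, hMYC-3, hMYC-4 and hMYC-12), without a steady rise over the lower part of the index. LDHA is high in 3 letter c libraries only, and PFKFB3 is highest in 1 library.

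The remaining 24 genes did not pass the test along the index. The widest of these differences was that of SLC16A3 (ENSDARG00000045051), at -4.70 ± 2.07 (adjusted p = 0.162), while the other SLC16A3 identifier gave -0.02 ± 0.65 (adjusted p = 0.989). PKM had -1.50 ± 0.55 (adjusted p = 0.0944), GPI -1.11 ± 0.39 (adjusted p = 0.0790) and ENO1 (ENSDARG00000022456) -1.44 ± 0.72 (adjusted p = 0.223). With the letter as a covariate this ENO1 identifier gave -0.09 ± 0.65 (adjusted p = 0.951). HK1 and HK2 gave -0.73 ± 0.55 (adjusted p = 0.429) and -1.64 ± 0.99 (adjusted p = 0.316). TPI1 (0.09 ± 0.29), ENO3 (0.02 ± 0.33) and pgam1a (-0.20 ± 0.33) had estimates within 1 SE of 0. PGK2, outside the list, gave -1.03 ± 0.32 (adjusted p = 0.0541).

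**Figure D4:**
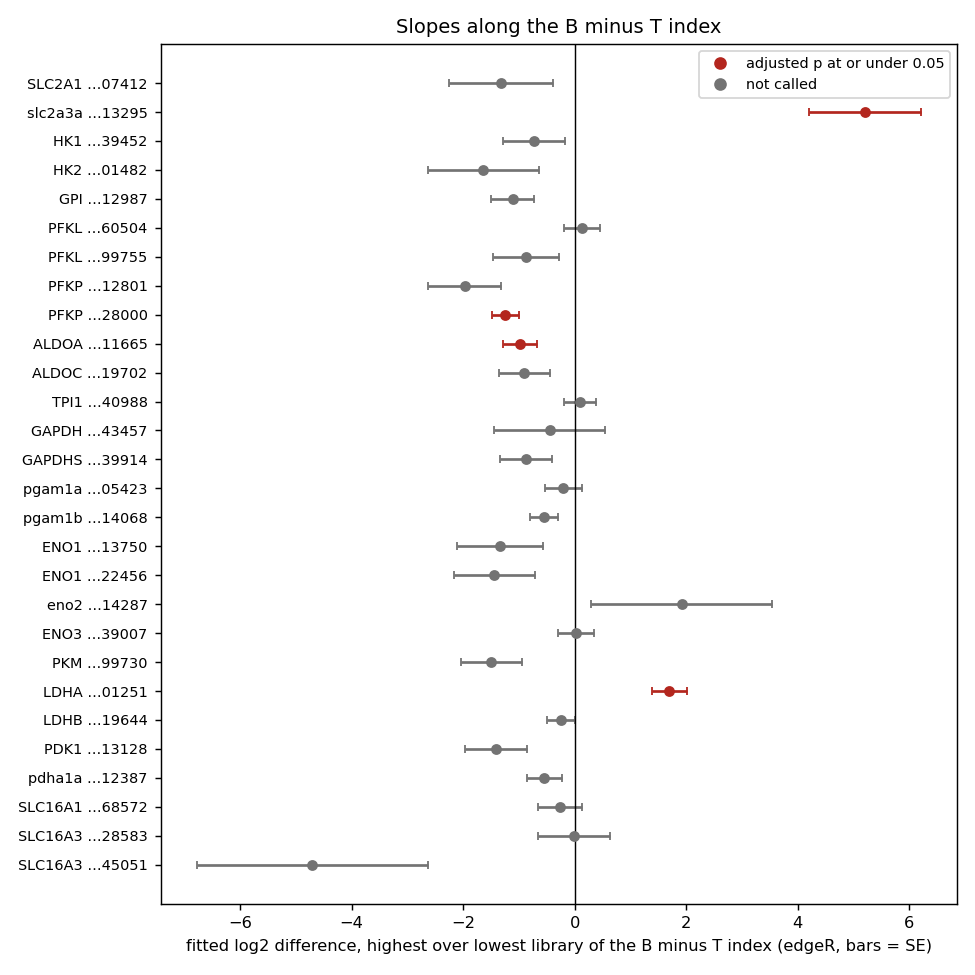
Fitted log2 difference between the highest and the lowest library of the B minus T index for the 28 genes past the filter (x axis, edgeR, bars are 1 SE), red where the adjusted p was at or under 0.05. Most points, 22 of 28, are left of 0, and slc2a3a and LDHA are the 2 called genes on the right.

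Between the letters, none of the 28 genes passed the adjustment, beside 0.344% of all tested genes (47 of 13663, with 0.11% up and 0.234% down). Without adjustment 11 of the 28 had a p under 0.05 in edgeR's quasi-likelihood test, beside 20.4% of all genes, and DESeq2 called 6, beside 8.48% of all genes. The median log2 difference d over c was 0.40 for the 28 genes and -0.02 for all genes, and 18 of 28 were above 0. PFKP (ENSDARG00000012801) was the 1 of the 28 genes whose letters did not overlap, which held for 2.23% of all tested genes. It had 29.2 to 46.8 CPM in d and 3.81 to 19.1 CPM in c (1.51 ± 0.32, adjusted p = 0.0706). ENO1 (ENSDARG00000022456) had 214 to 1240 CPM with a median of 528 CPM in d, and 211 to 264 CPM with a median of 242 CPM in c (1.44 ± 0.34, adjusted p = 0.0885). GPI had a median of 348 CPM in d and 179 CPM in c (0.88 ± 0.22, adjusted p = 0.0933). PFKP (ENSDARG00000012801) was called without hMYC-5 (1.32, adjusted p = 0.0419), and ENO1 (1.62, adjusted p = 0.0387) and GPI (1.02, adjusted p = 0.0288) were called without hMYC-12. The B minus T index differs between the letters, so these differences and those along the index cannot be told fully apart.

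Of 8 pairs of genes set for a correlation across libraries, those of PKM with its paralog and of gapdh with pgk1 could not be computed, because a partner was under the filter or not found. The other 6 gave 8 pairs of identifiers. In 5 of them LDHA, HK2 or SLC16A3 (ENSDARG00000028583) had a gap that set libraries apart as clusters, so no pooled value is given. None of the remaining 3 passed the adjustment over the 3. SLC2A1 and slc2a3a showed no relation past the test (Pearson r = -0.03 with a permutation p of 0.921, adjusted 0.921, and Spearman rho = -0.10 with a permutation p of 0.768, adjusted 0.768, over 12 libraries). The r was 0.04 in d and 0.02 in c, and 0.01 without hMYC-2 and hMYC-3. ENO1 (ENSDARG00000022456) and ENO3 had r = 0.67, with a permutation p of 0.0279 that became 0.0836 after adjustment. Their rho was 0.40, with a permutation p of 0.204 (0.611 after adjustment). That relation rested on hMYC-13 and hMYC-9, since r was 0.11 without them, and it was 0.75 within d (exact permutation p = 0.0861) and -0.26 within c (exact permutation p = 0.658). The second ENO1 identifier (ENSDARG00000013750) and ENO3 had r = 0.25, with a permutation p of 0.429 (0.643 after adjustment), and rho = 0.11, with a permutation p of 0.729 (0.768 after adjustment). Here r was 0.37 in d, -0.58 in c and 0.48 without hMYC-14 and hMYC-9.

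Other genes of glucose metabolism were counted as 70 identifiers, of which 43 passed the filter. Along the index 4 of the 43 were called up and 1 down (11.6%), beside 13.5% of all genes (8.12% up and 5.35% down), so the share was near that of all genes. The median log2 difference of the 43 was -0.04, beside -0.08 over all genes. fbp1a (ENSDARG00000021366), the gluconeogenic fructose bisphosphatase that reverses the phosphofructokinase step, was higher toward the B end with the smallest p of the list (5.12 ± 0.71, adjusted p = 0.000403). From the B end to the T end fbp1a had 35.9, 43.7, 31.1, 19.0, 3.03, 9.06, 1.72, 5.98, 3.98, 1.65, 0.602 and 1.72 CPM. SLC2A12 (ENSDARG00000036865), the glucose transporter GLUT12, had 16.7, 14.5 and 16.2 CPM in the 3 libraries at the B end and at most 6.53 CPM elsewhere (5.04 ± 1.13, adjusted p = 0.0102). pfkfb4a (ENSDARG00000055540), which sets the level of fructose 2,6-bisphosphate, the activator of phosphofructokinase, gave 1.03 ± 0.27 (adjusted p = 0.0258). With the letter as a covariate pfkfb4a was no longer called (0.91, adjusted p = 0.110), nor was it without hMYC-4, hMYC-5, hMYC-9 or hMYC-11 (adjusted p of 0.0537 to 0.109). Its paralog named PFKFB4 (ENSDARG00000029075) was not called and went the other way. With the letter as a covariate that paralog gave -1.76 ± 0.54 (adjusted p = 0.0575).

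PFKFB3 (ENSDARG00000001953), a paralog of pfkfb4a with high kinase activity, was called (3.36 ± 0.74, adjusted p = 0.00940). It had 200.5 CPM in hMYC-5, 41.9 CPM in hMYC-4 and at most 24.7 CPM in the other 10 libraries. Without hMYC-5 the difference was 1.25 (adjusted p = 0.450). With the letter as a covariate it was 3.42 ± 1.05 and no longer called (adjusted p = 0.0595). The 1 gene called down was SLC16A8 (ENSDARG00000045153), the lactate transporter MCT3 of the mammalian retina, at -2.12 ± 0.57 (adjusted p = 0.0266), with 17.0 CPM in hMYC-5, 33.9 CPM in hMYC-3 and 47.3 CPM in hMYC-4, against 92.9 to 152 CPM in the other libraries. With the letter as a covariate SLC16A8 gave -1.83 (adjusted p = 0.0687), and it was not called without hMYC-5, hMYC-3 or hMYC-4 (adjusted p of 0.0592 to 0.150). The fits within letters, added after the data were seen, went opposite ways. SLC16A8 gave -2.73 ± 0.44 in c (adjusted p = 0.0131), where 1465 of 13663 genes were called. In d it gave 0.81 ± 0.51 (adjusted p = 0.663), where 72 were called. slc2a3b (ENSDARG00000037861), the paralog of slc2a3a, had 33.8 to 135 CPM and was not called (-0.59 ± 0.47, adjusted p = 0.460).

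Hypoxia regulators and targets other than the glycolysis genes were counted as 27 identifiers, 18 of them past the filter. Of these 18, 1 was called along the index, downward, and none was called up (5.56% in all, beside 13.5% of all genes, with 8.12% up and 5.35% down). The fitted difference was above 0 in 7 of the 18. HIF1AN (ENSDARG00000031915), the hydroxylase that restrains the hypoxia factor HIF-1, was lower toward the B end, with 35.3 CPM in hMYC-5, 62.6 CPM in hMYC-3 and 45.1 CPM in hMYC-4, 53.0 CPM in hMYC-2 nearer the T end, and 230 CPM at its highest in hMYC-10. Its difference was -2.34 ± 0.49 (adjusted p = 0.00741), and -1.70 with the letter as a covariate (adjusted p = 0.0606).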

How the data were processed

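The deposited table holds whole-number read counts per Ensembl gene for 13 columns. Per the submitters' processing notes the authors used bcl2fastq, STAR, featureCounts and Picard with the build GRCz10, with versions, annotation and strand setting not given in the sources used here. Per the labels' protocols, libraries were made from 100 ng of total RNA with a stranded kit. Genes were named through a name table that matched 26269 of 32105 identifiers. The members and lists, the index markers included, were chosen with earlier results of these data known. Genes passing edgeR's filterByExpr by letter (13663) were scaled by TMM on their summed counts and tested by edgeR 4.0.16 (R 4.3.3) in quasi-likelihood fits, called at an adjusted p of 0.05. Log2 CPM used a prior count of 2. DESeq2 1.42.0 was an alternative. Correlations used 100000 permutations, and all 720 within a letter, and a gap of 0.4 of the range meant clusters. The plan to compare paralogs per kilobase was replaced by read shares, since no usable lengths were at hand. Reads shared between near-identical paralogs could have been split or dropped. Full statistics were set for called members, for the leading paralog of a step and for the 5 largest SDs; called genes of the other lists were named, at most 10. Simulated 4-fold changes in 200 of 13663 genes along the index were recovered in 25.5% at the dispersion of these libraries (3.77% of calls false).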

Additional observations from a re-analysis of the deposited data

How the results depend on the processing

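LDHA was called along the index under all 22 alternatives. slc2a3a and PFKP (ENSDARG00000028000) were called in 21, the exception being the T score alone (3.17, adjusted p = 0.270, and -0.91, adjusted p = 0.316). These alternatives leave out at most 1 library. Without both hMYC-3 and hMYC-5 the Pearson r of LDHA with the index was 0.73 (permutation p = 0.104). That of slc2a3a was 0.82 (permutation p = 0.00206) and that of PFKP -0.84 (permutation p = 0.0039). ALDOA was lost in 12 of 22, library totals (adjusted p = 0.0962) and the letter as a covariate included. In place of 4 members called along the index, DESeq2 called 8, the T score alone 1, and leaving out 1 library 3 to 7, with 7 without hMYC-13. In place of 1840 of all genes, DESeq2 called 2974, no filter 3060, ranks of the index 1140, the T score alone 399 and leave-one-out fits 1031 (without hMYC-5) to 2379, with 1175 without hMYC-3. Between letters, in place of 0 members, DESeq2 called 6, library totals 1 and leave-one-out fits 0 to 2, with 1 without hMYC-5 and 2 without hMYC-12. In place of 47 of all genes, DESeq2 called 1159, a fit with no filter 7, one of genes averaging at least 10 counts 20, including hMYC-1 gave 0, the index as a covariate 7 and leave-one-out fits 8 to 59. The median SD was 0.62 to 0.70, steps with 1 leader stayed at 9, and no relation passed in leave-one-out fits. Library totals gave 3 relations in place of 0. Of these, 1 was ENO1 (ENSDARG00000022456) with ENO3, and the others were pairs set aside as clusters in the main analysis. Enolase, lactate dehydrogenase and SLC16A3 changed their leading identifier when medians replaced means, and enolase also without hMYC-13, where ENO1 averaged 373 CPM and ENO3 386 CPM. Leaving out 1 library, the r of SLC2A1 and slc2a3a was -0.187 to 0.154, above 0 without hMYC-3, hMYC-5 (0.091) or hMYC-12 (0.024). That of ENO1 (ENSDARG00000013750) and ENO3 was -0.0576 (without hMYC-13) to 0.590. The cause was not tested. The split of index calls was 60.3% up. It ran from 26.1% up with the T score alone to 76.8% with ranks of the index, and was 50.3% by DESeq2. The level per kilobase was not run. No paired analysis was possible because the labels give 1 group. Low counts limit eno2, GAPDH and slc2a3a most.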

Other observations

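The neuronal enolase eno2 (ENSDARG00000014287) was not called along the index over all 12 libraries, at 1.92 ± 1.62 (adjusted p = 0.488), but gave 6.06 ± 1.88 with the letter as a covariate (adjusted p = 0.0617). The fits within letters were added after the data were seen and are scaled to the whole index. In them the eno2 difference was 4.59 ± 4.93 in d (adjusted p = 0.828) and 6.42 ± 1.05 in c (adjusted p = 0.0137). Those fits called 1465 of all 13663 genes in c and 72 in d. The index falls into clusters within c, so the c difference contrasts hMYC-5, hMYC-3 and hMYC-4 with hMYC-6, hMYC-8 and hMYC-2. In the 6 letter c libraries eno2 had 2.62, 4.10 and 3.17 CPM in hMYC-5, hMYC-3 and hMYC-4, and 0.191, 0.0818 and 0.166 CPM in hMYC-6, hMYC-8 and hMYC-2. The letter d libraries did not follow that order. From the B end, eno2 had 0.749 CPM in hMYC-12, 8.07 in hMYC-13, 2.84 in hMYC-14, 0 in hMYC-10, 2.33 in hMYC-9 and 0.406 in hMYC-11. These levels rest on few reads, 283 counts in all 12 libraries.

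Among the pyruvate dehydrogenase kinases, PDK2 and PDK4 varied widely between the leukemias without being called along the index, and PDK3 (ENSDARG00000014527) had 8.17 to 19.8 CPM. PDK2 (ENSDARG00000059054) had 313 CPM in hMYC-14 and 277 CPM in hMYC-6, a median of 38.3 CPM and a lowest value of 9.90 CPM in hMYC-5 (-2.73 ± 1.76, adjusted p = 0.350). The second PDK2 identifier (ENSDARG00000020876) had 0.304 to 39.3 CPM and went the other way with the letter as a covariate. It gave 1.83 ± 1.74 there (adjusted p = 0.550), against -2.89 ± 2.06 for the first (adjusted p = 0.406). PDK4 (ENSDARG00000054848) had 167 CPM in hMYC-13 and 112 CPM in hMYC-6, a median of 29.2 CPM and a lowest value of 11.1 CPM in hMYC-5 (-1.70 ± 1.13, adjusted p = 0.367). TXNIP (ENSDARG00000036107), which curbs glucose uptake in mammalian cells, had 174 to 1447 CPM (-1.40 ± 0.81, adjusted p = 0.295).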
